A study of Mus musculus with 12 samples.

Results

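The comparison set the spleens of 3 mice labelled DKO against those of 3 mice labelled DKO/hA-I, 6 of the 12 libraries of the series, with one number of the animal code held as a block. DKO mice have neither apoE, which receptors bind to take remnants of lipoproteins out of the blood, nor apoA-I, on which high density lipoprotein is built. DKO/hA-I mice carry the same deficiencies and overexpress human apoA-I; the labels do not say which promoter drives the human gene. All 6 animals were 30 weeks old and ate normal laboratory diet, and the series also holds 6 axillary lymph node libraries from other animals. The members were taken by their animal codes. DKO replicates 1, 2 and 3 are animals 73-56-2, 73-57-3 and 73-55-12. DKO/hA-I replicates 1, 2 and 3 are animals 73-55-13, 73-57-1 and 73-57-2. The middle number of the code, 55, 56 or 57, is the block. The labels do not say whether it stands for a cage, a litter, a day or something else.

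A block removes from the spread whatever the animals of one code share, so each DKO library is set against the DKO/hA-I libraries of its own code. Code 55 holds 1 library of each genotype and code 57 holds DKO replicate 2 and DKO/hA-I replicates 2 and 3. DKO replicate 1 is alone in code 56, has no DKO/hA-I partner and gives the blocked genotype difference no information. That difference therefore rests on 5 libraries, and its fit has 2 residual degrees of freedom against 4 without the block.

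The spleen filters blood and stores lymphocytes. Its red pulp clears old red cells and, in the mouse, also makes new ones, while its white pulp holds follicles of B cells and sheaths of T cells on a net of reticular stroma. Bulk RNA from a whole spleen sums all of these cells, so the share of a cell type and the RNA made per cell cannot be told apart in any result below.

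The 6 spleen libraries held 8966001 to 11237680 read counts, and 14009 of 23284 genes passed the filter on low counts. Levels are counts scaled to library size (CPM) by the TMM method, and differences are log2 DKO minus DKO/hA-I ± standard error. Haemoglobin genes took 1.14%, 4.98% and 3.06% of counts in DKO replicates 1 to 3 and 1.81%, 2.76% and 1.72% in DKO/hA-I replicates 1 to 3. Mouse Apoa1 had 4 to 13 counts in each library, and Apoe stood at 8.26, 14.5 and 11.6 CPM in DKO and 8.31, 11.8 and 11.2 CPM in DKO/hA-I (0.40 ± 0.15, adjusted p = 0.162). These 2 mouse genes are deficient in both groups and so do not check the genotype labels, and human apoA-I RNA was not analysed here. All directions below rest on the labels, and the pseudogene described further on differs in opposite directions between the labelled groups of spleen and lymph node.

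With the code as a block, 515 of 14009 genes (3.68%) were called at a Benjamini-Hochberg adjusted p under 0.05 by edgeR's quasi-likelihood test. Of these, 355 were higher in DKO (2.53% of genes tested) and 160 lower (1.14%). Without the block, 1 gene was called (0.00714%), the pseudogene Rpl31-ps12. An unadjusted p under 0.05 was found for 617 genes without the block and 3187 with it, where 700.5 would be expected if no gene differed. Red cell genes, some interferon stimulated genes, ribosomal and respiratory chain subunits and a few chaperones were among the called higher genes. Clock genes, B cell genes and stromal cytokines were among the lower. Most called differences were modest: 51 higher and 7 lower genes differed at least 2-fold, and the median log2 difference was 0.60 for the higher and -0.52 for the lower genes.

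The same 515 genes had smaller differences and wider errors without the block. The median difference of the 355 higher genes was 0.385 without the block against 0.603 with it, and their median standard error was 0.207 against 0.108. For the 160 lower genes the medians were -0.31 against -0.516, with standard errors of 0.17 against 0.105. All 515 kept one direction in the 3 comparisons within a code, where 26.5% of all genes were higher and 27.7% lower in all 3. The call itself used these 5 libraries, so nothing is read from that count. The 515 genes were chosen by the blocked fit, which favours larger differences and smaller errors in that fit. Nothing is therefore read from the shift of their medians either. For the 13494 genes not called, the median standard error was 0.127 with the block and 0.151 without it.

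DKO replicate 1, the library that the blocked difference does not use, did not resemble the other DKO libraries in the higher genes. Of the 355 higher genes, it lay below all 3 DKO/hA-I libraries in 184 (51.8%), within their range in 126 (35.5%) and above all 3 in 45 (12.7%). Of all genes tested, 26.7% lay below and 26.7% above. Relative to the mean of the DKO/hA-I libraries, the higher genes had a median of -0.149 in DKO replicate 1, 0.727 in replicate 2 and 0.425 in replicate 3. Of the 160 lower genes, replicate 1 lay below all 3 DKO/hA-I libraries in 45 (28.1%) and above them in 33 (20.6%), with a median of -0.001 against -0.615 and -0.34 in replicates 2 and 3. The library outside the block thus stood below the DKO/hA-I range more often than above it in the higher genes, and near the DKO/hA-I mean in the lower ones.

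**Figure D1:**
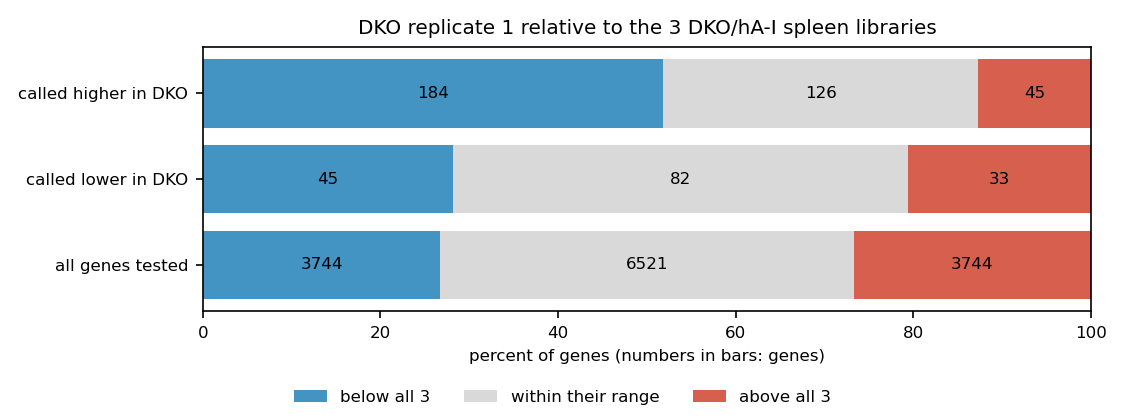
Place of DKO replicate 1 relative to the 3 DKO/hA-I spleen libraries, as the percent of genes (x axis) below, within or above their range, for genes called higher, called lower and all genes tested; numbers in the bars are genes. Replicate 1 lies below all 3 in 184 of 355 higher genes and above them in 45.

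Leaving out DKO replicate 1 can alter the blocked difference only through the filter, scaling and spread, and so says nothing about its stability; it gave 490 calls. Without the block the same 5 libraries gave 167 calls, 150 higher and 17 lower, against 1 with all 6. Of these, 138 were among the 515, which is 26.8% of the 515 and 82.6% of the 167.

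The blocked count depended on which library was left out. Each of these fits but the one without DKO replicate 1 had fewer residual degrees of freedom than the fit of all 6 libraries. With DKO replicate 2 left out, the difference rested on the pair of code 55 alone and 22 genes were called, 11 of them among the 515. With DKO/hA-I replicate 3 left out it was 60 genes, 49 of them among the 515. With either library of code 55 left out only code 57 gave the difference, and 940 (DKO replicate 3 out) and 928 genes (DKO/hA-I replicate 1 out) were called. Of 65 named genes called with the block, 8 were still called with DKO replicate 2 left out, 19 with DKO/hA-I replicate 3 left out, and 50 to 60 without any 1 of the other 4 libraries. Rpl31-ps12, BC090627, Ypel4, Tmcc2, Isg15 and Gpx1 were called in all 6 of these fits, of which the one without DKO replicate 1 uses the same 5 libraries for the difference.

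**Figure D2:**
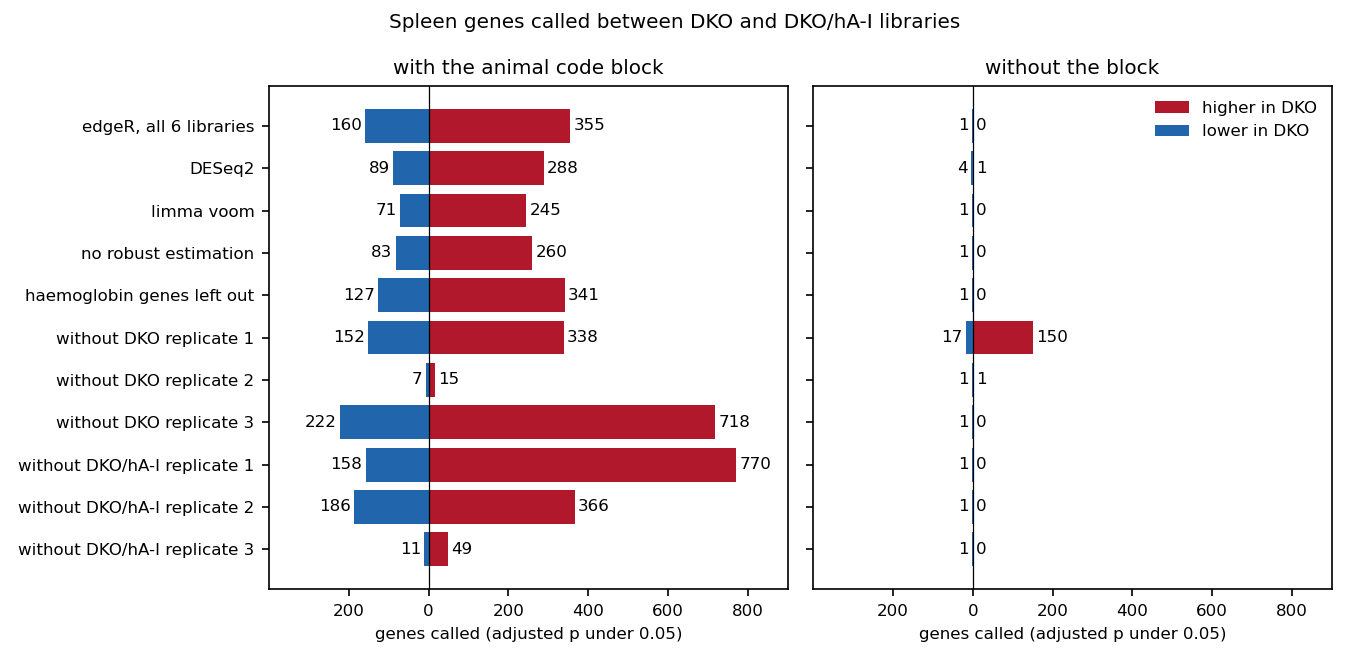
Genes called between DKO and DKO/hA-I spleens (x axis, number of genes; red, higher in DKO; blue, lower) under each tool and with each library left out (y axis), with the animal code block on the left and without it on the right. The blocked count is 355 higher and 160 lower with all libraries, and the unblocked count is 150 and 17 only where DKO replicate 1 is left out.

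Red cell genes had the largest median difference of the 37 lists. Of 21 erythroid genes tested (23 listed), 20 had a positive difference with the block and the list median was 1.01, against -0.002 over all genes, and 3 were called. DESeq2 called 7 of the list and limma voom 15. Slc4a1, the anion exchanger of the red cell membrane (chromosome 11, 102348824 to 102366203, GRCm38), stood at 699.9, 2993 and 2094 CPM in DKO and 1254, 1002 and 1015 CPM in DKO/hA-I. DKO replicates 2 and 3 lay above every DKO/hA-I library and replicate 1 lay below them all. Its blocked difference was 1.22 ± 0.19 (adjusted p = 0.0385). The other called members were Epb4.2, which encodes membrane protein 4.2 (1.15 ± 0.16, adjusted p = 0.0295), and Spnb1, which encodes erythrocyte beta spectrin (1.10 ± 0.18, adjusted p = 0.0469).

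Most erythroid genes that were not called also had positive values. Alas2, the first enzyme of haem synthesis in red cell precursors, had a difference of 0.99 ± 0.22 (adjusted p = 0.0837). Summed over the list, erythroid genes came to 13970, 62050 and 38060 CPM in DKO replicates 1 to 3 and 22530, 30820 and 20450 CPM in DKO/hA-I. Haemoglobin genes made up most of each sum. The list medians relative to the DKO/hA-I mean were -0.631, 1.215 and 0.824 in DKO and 0.311, -0.211 and -0.12 in DKO/hA-I. The DKO/hA-I libraries thus stood in another order by median than by sum. By both measures DKO replicate 1 was the lowest library and the other DKO libraries the highest.

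Several genes outside that list followed the same order of libraries. Tmcc2, a transmembrane coiled-coil protein gene, stood at 202, 735 and 554 CPM in DKO and 255, 265 and 241 CPM in DKO/hA-I (1.36 ± 0.10, adjusted p = 0.00192). Gpx1, which encodes a glutathione peroxidase, stood at 445, 1312 and 959.5 CPM against 552, 595 and 569.7 CPM (1.01 ± 0.10, adjusted p = 0.00343). Both lay outside the DKO/hA-I range in all 3 DKO libraries, below it in replicate 1 and above it in replicates 2 and 3. This is also the order of the erythroid sums, whose part in the other differences was not tested. With the haemoglobin genes left out before scaling, 468 genes were called with the block, 462 of them among the 515. Among the genes with the largest rises, Gfap, Apol10a, Ypel4, Cfd (complement factor D, also an adipocyte product), Apol11b, Smpdl3b, Hist3h2ba, Pdzk1ip1, Cacna1g and the globin gene Hbq1a had differences of 1.30 to 1.56. Hist3h2ba and Hbq1a were not called by DESeq2, limma voom or edgeR without robust estimation. Cfd was 1 of 3 adipocyte markers tested, its level was at most 5.06 CPM, and the 3 markers summed to 6.03 to 14.3 CPM in DKO and 9.67 to 14.3 CPM in DKO/hA-I. Their part in the result was not tested.

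Cell division genes had positive differences that mostly did not pass the test. Of 34 cell cycle genes tested all had a positive difference, with a median of 0.51, and 1 was called (5 by DESeq2 and 0 by limma voom). Cdt1, which licenses replication origins, stood at 53.1, 108 and 84.2 CPM in DKO and 66.4, 55.4 and 65.4 CPM in DKO/hA-I (0.63 ± 0.13, adjusted p = 0.0416). Mki67, a marker of dividing cells, was not called (0.54 ± 0.20, adjusted p = 0.204). The list's library medians relative to the DKO/hA-I mean were -0.385, 0.664 and 0.352 in DKO and 0.287, -0.296 and 0.013 in DKO/hA-I, so that DKO/hA-I replicate 1 of code 55 came close to its DKO partner.

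**Figure D3:**
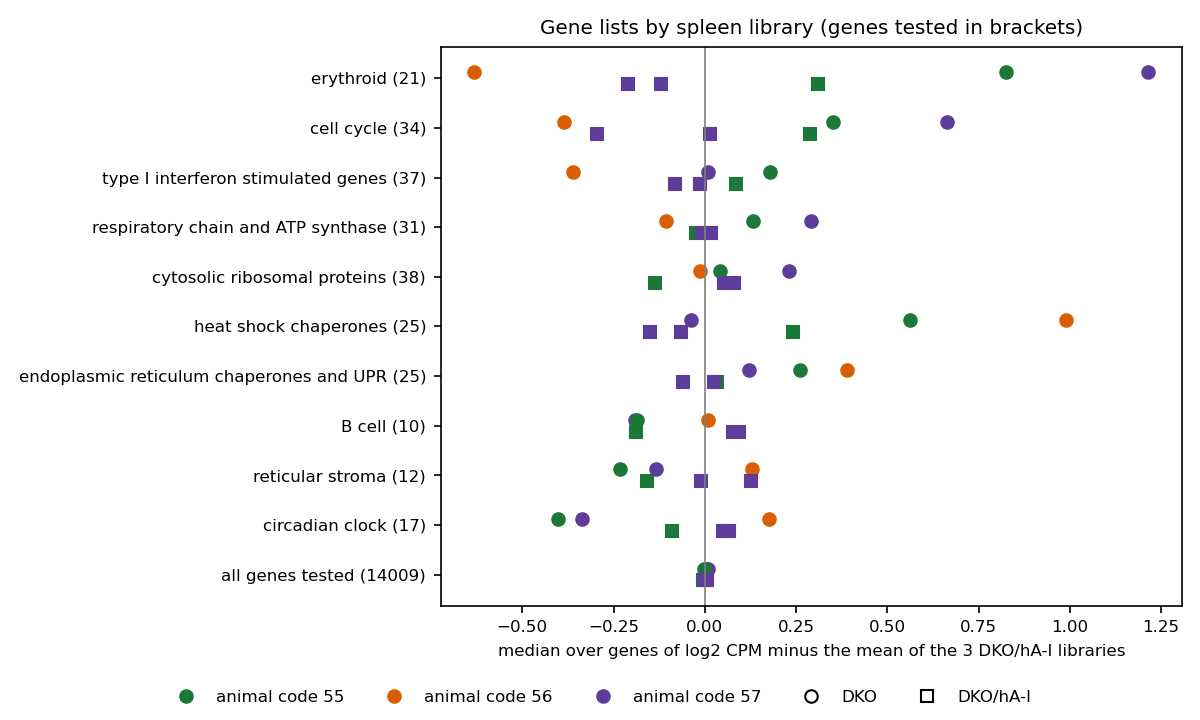
Median over the genes of each list of log2 CPM minus the mean of the 3 DKO/hA-I libraries (x axis), 1 point per spleen library, coloured by animal code, with circles for DKO and squares for DKO/hA-I. Erythroid genes lie at -0.631 in DKO replicate 1 and at 1.215 and 0.824 in replicates 2 and 3; heat shock chaperones are highest in replicate 1, at 0.989.

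Interferon stimulated genes encode antiviral proteins whose transcription is switched on through the interferon receptor. In the type I list, 7 of 37 genes tested were called, all higher: Isg15, Bst2, Irf7, Ifi27l2a, Oas3, Oasl1 and Rsad2. The list median was 0.053, close to 0, so the list did not rise as a whole. Isg15, a ubiquitin-like modifier (chromosome 4, 156199424 to 156200818), stood at 34.9, 149 and 103 CPM in DKO and 52.3, 55.5 and 50.4 CPM in DKO/hA-I (1.28 ± 0.12, adjusted p = 0.00343). Rsad2, the antiviral protein viperin, stood at 87.1, 373 and 289 CPM against 177, 143 and 128 CPM (1.14 ± 0.18, adjusted p = 0.0414). In both genes replicates 2 and 3 were above and replicate 1 below every DKO/hA-I library.

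The remaining called members differed less. Oas3, an oligoadenylate synthetase, had a difference of 0.78 ± 0.14 (adjusted p = 0.0391). Bst2, the virion tether tetherin, had 0.64 ± 0.09 (adjusted p = 0.0127), and Irf7, a transcription factor of the interferon response, 0.57 ± 0.09 (adjusted p = 0.0167). Well known members of the list were not called: Mx1 stood at 25.6, 39.6 and 38.5 CPM in DKO and 40.8, 42.6 and 33.3 CPM in DKO/hA-I (0.00 ± 0.13, adjusted p = 0.996). Ifit1 had 0.47 ± 0.12 (adjusted p = 0.0661). Of 27 interferon gamma induced genes, edgeR, DESeq2 and limma voom called 0 with the block, and the median was -0.03. An unadjusted p under 0.05 was found for 6 of them by edgeR, and for 3187 of all 14009 genes.

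Promoters of genes called together in these lists are printed to show the motif each list is known for. They run 5′ to 3′ on the gene's strand from 250 bases before to 50 after the start, from RefSeq (GRCm38.p6), with motif matches on either strand in capitals. The interferon stimulated response element was searched as GAAA, any pair of bases and GAAA, which 3.49% of all 27025 promoters hold. It was in 16 of 26 list promoters found (61.54%) and in 4 of the 6 found for called members, printed here: Isg15 (chr4:156200769-156201068, minus strand), Rsad2 (chr12:26456403-26456702, minus), Bst2 (chr8:71537423-71537722, minus) and Oas3 (chr5:120777610-120777909, minus). The uncalled Ifit1 and Stat2 hold it too. A match is a description of the letters, not a bound site.
Isg15: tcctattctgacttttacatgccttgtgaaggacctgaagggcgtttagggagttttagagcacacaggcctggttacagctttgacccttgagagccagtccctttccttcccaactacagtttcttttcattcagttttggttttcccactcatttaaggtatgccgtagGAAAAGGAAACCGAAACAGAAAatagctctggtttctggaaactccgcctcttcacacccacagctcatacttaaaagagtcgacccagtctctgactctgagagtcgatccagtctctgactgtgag
Rsad2: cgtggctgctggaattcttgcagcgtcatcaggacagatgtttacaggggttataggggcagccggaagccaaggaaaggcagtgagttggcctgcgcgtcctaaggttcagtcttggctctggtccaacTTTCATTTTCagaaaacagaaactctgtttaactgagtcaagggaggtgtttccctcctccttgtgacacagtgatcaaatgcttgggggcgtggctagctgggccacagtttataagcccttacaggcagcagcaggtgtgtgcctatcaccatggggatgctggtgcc
Bst2: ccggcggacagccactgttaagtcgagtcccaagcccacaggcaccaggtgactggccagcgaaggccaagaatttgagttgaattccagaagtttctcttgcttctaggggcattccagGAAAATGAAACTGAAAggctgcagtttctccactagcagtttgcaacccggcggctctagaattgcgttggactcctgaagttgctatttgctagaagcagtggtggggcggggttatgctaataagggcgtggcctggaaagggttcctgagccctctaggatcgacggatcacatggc
Oas3: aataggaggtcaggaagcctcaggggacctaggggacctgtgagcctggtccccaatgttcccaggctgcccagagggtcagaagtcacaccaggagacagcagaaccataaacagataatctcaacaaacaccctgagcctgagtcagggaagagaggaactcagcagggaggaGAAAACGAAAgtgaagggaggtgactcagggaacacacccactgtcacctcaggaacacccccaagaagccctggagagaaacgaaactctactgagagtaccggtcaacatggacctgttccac

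In Isg15 the matches overlap in 1 run of 22 marked bases that starts 78 bases before the transcription start. For red cell genes the GATA factor motif was searched as AGATAA, which 11.41% of all promoters hold; 6 of 14 erythroid promoters found hold it (42.86%). Of the called genes, it is in Epb4.2 (chr2:121036828-121037127, minus), where capitals show its reverse complement. The D-box of clock genes, TTANGTAA, is in 2.34% of all promoters and, of the 6 called clock genes, occurs at 2 places in Per3 (chr4:151044616-151044915, minus).
Epb4.2: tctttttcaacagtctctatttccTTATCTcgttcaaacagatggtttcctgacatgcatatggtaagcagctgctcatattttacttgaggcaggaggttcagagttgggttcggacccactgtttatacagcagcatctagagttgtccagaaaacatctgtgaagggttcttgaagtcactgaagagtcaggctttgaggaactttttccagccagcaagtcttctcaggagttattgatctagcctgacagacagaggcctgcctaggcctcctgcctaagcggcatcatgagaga
Per3: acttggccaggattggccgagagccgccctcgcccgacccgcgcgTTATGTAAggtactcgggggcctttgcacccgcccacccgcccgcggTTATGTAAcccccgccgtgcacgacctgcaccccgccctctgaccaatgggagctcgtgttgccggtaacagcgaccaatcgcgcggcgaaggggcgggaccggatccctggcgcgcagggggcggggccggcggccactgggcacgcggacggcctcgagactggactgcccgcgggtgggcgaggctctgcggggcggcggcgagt

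A set of clock genes fell. The circadian clock is a feedback loop in which CLOCK and ARNTL drive Per, Cry and Nr1d genes and the PAR bZIP factors Dbp, Hlf and Tef. Of 17 clock genes tested, 6 were called and all were lower: Dbp, Hlf, Nr1d1, Nr1d2, Per3 and Tef. Dbp (chromosome 7, 45705088 to 45710203) stood at 21.6, 7.59 and 6.12 CPM in DKO and 17.3, 26.1 and 21.4 CPM in DKO/hA-I (-1.58 ± 0.16, adjusted p = 0.00343). Nr1d2, which encodes the repressor REV-ERB beta, stood at 101, 45.8 and 54.7 CPM against 96.5, 81.4 and 89.2 CPM (-0.86 ± 0.09, adjusted p = 0.00567). In both, DKO replicates 2 and 3 were the lowest libraries, while replicate 1 lay within the DKO/hA-I range for Dbp and above it for Nr1d2.

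The other called clock genes fell by varying amounts. Hlf had a difference of -1.66 ± 0.24 (adjusted p = 0.0117), Nr1d1 -0.90 ± 0.13 (adjusted p = 0.0108), Per3 -0.66 ± 0.12 (adjusted p = 0.025) and Tef -0.59 ± 0.09 (adjusted p = 0.016). The activator gene Arntl was not called (0.09 ± 0.13, adjusted p = 0.728), nor were Per1 (-0.07 ± 0.17, adjusted p = 0.827), Per2 (-0.17 ± 0.14, adjusted p = 0.523) and Cry1 (-0.07 ± 0.18, adjusted p = 0.849). The labels do not give the hour of sampling, and its part in these differences was not tested. The list medians by library were 0.177, -0.337 and -0.403 in DKO and -0.091, 0.067 and 0.05 in DKO/hA-I.

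**Figure D4:**
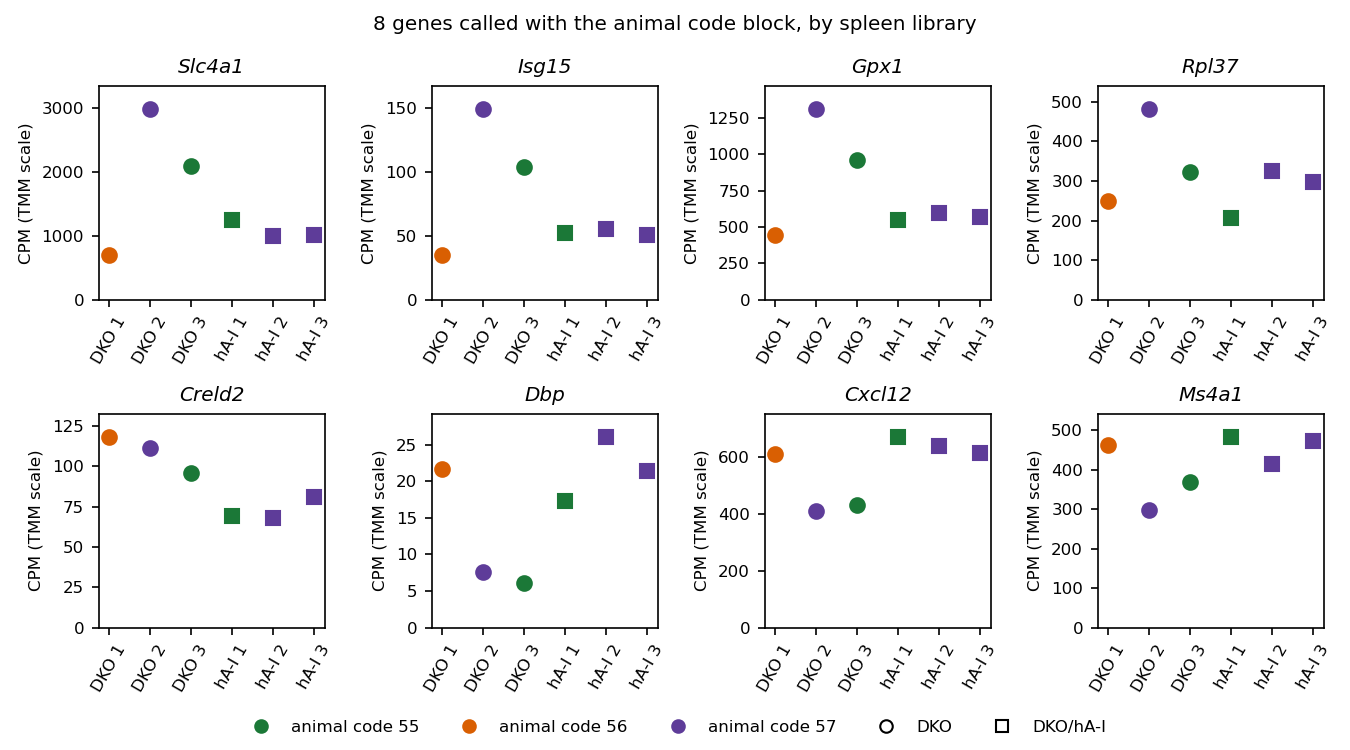
CPM on the TMM scale (y axis, from 0) of 8 genes called with the block in each of the 6 spleen libraries (x axis), coloured by animal code, with circles for DKO and squares for DKO/hA-I. For Slc4a1, Isg15 and Gpx1, DKO replicate 1 is the lowest library and replicates 2 and 3 are the highest; for Creld2 all 3 DKO libraries lie above all DKO/hA-I libraries.

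Some subunits of the ribosome and of the respiratory chain rose by less than 2-fold. Of 38 cytosolic ribosomal protein genes tested, 8 were called, all higher (Rpl37, Rpl31, Rplp2, Rplp1, Rpl38, Rpl27, Rps16 and Rpl18), and the list median was 0.178. DESeq2 called the same 8 and limma voom 5. Rpl37 stood at 249, 482 and 322 CPM in DKO and 206, 324 and 298 CPM in DKO/hA-I (0.64 ± 0.08, adjusted p = 0.00823). Its groups overlapped, while DKO was higher in each comparison within a code. The code 57 minus 55 difference was 0.59 (adjusted p = 0.104, not called). Rpl31 rose by 0.60 ± 0.08 (adjusted p = 0.0108), but it shares nearly all of its coding sequence with the pseudogene described below, and the labels do not say how the counting divided their reads.

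Of 31 respiratory chain and ATP synthase genes, 6 were called, all higher: Cox4i1, Ndufa1, Ndufb8, Uqcrq, Cox7a2 and Cox5b. The list median was 0.229. DESeq2 called 2 of the list (Cox4i1 and Ndufa1) and limma voom 3 (Cox4i1, Ndufa1 and Ndufb8). Cox4i1, a subunit of cytochrome c oxidase, stood at 174, 297 and 221 CPM in DKO and 168, 208 and 196 CPM in DKO/hA-I (0.49 ± 0.08, adjusted p = 0.0196). Transcript length and GC content moved with the calls. The median transcript length was 1054 bases for higher genes, 2149 for lower genes and 1462 for all genes tested, and the median GC content was 55.3%, 43.4% and 50.7%. Genes with transcripts under 1000 bases took 44.53%, 48.53% and 46.09% of the signal in DKO and 44.45%, 45.99% and 45.25% in DKO/hA-I. The part of transcript length and GC content in the calls was not tested.

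Chaperone genes showed a different order of libraries. Among 25 heat shock chaperones, Hspe1, Dnajb1 and Ahsa1 were called, all higher (list median 0.275). DESeq2 and limma voom called only Hspe1 and Dnajb1. Ahsa1 was called in 0 of the 6 fits with 1 library left out. Hspe1, the mitochondrial co-chaperone of Hspd1, stood at 115, 108 and 123 CPM in DKO and 82.8, 79.1 and 75.3 CPM in DKO/hA-I, and here all DKO libraries lay above all DKO/hA-I libraries (0.52 ± 0.08, adjusted p = 0.0176; 0.54 without the block, adjusted p = 0.759). Dnajb1, an HSP40 co-chaperone, stood at 201, 79.8 and 168 CPM against 87.5, 59.1 and 61.4 CPM (0.64 ± 0.12, adjusted p = 0.034). The list was highest in DKO replicate 1, with library medians of 0.989, -0.038 and 0.563 in DKO and 0.241, -0.151 and -0.066 in DKO/hA-I.

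Of 25 endoplasmic reticulum chaperone and unfolded protein response genes, 3 were called, all higher, with a list median of 0.204. Plasma cell markers, of which Derl3 is also one, summed to 5318, 4459 and 4966 CPM in DKO and 4057, 3999 and 4506 CPM in DKO/hA-I. Of these 12 markers 8 had a positive difference, Derl3 was called, and the median was 0.172. An unadjusted p under 0.05 was found for 5 of them, and for 3187 of all 14009 genes. Their part in the chaperone result was not tested. Creld2 (chromosome 15, 88819646 to 88826683) stood at 118, 111 and 96.2 CPM in DKO and 69.1, 68.1 and 81.3 CPM in DKO/hA-I (0.53 ± 0.10, adjusted p = 0.0269; 0.58 without the block, adjusted p = 0.929). Sdf2l1 (0.51 ± 0.09, adjusted p = 0.0261) and Derl3, which acts in degradation of misfolded proteins and is high in plasma cells (0.57 ± 0.10, adjusted p = 0.0199), also had all DKO libraries above all DKO/hA-I libraries. Hspa5, the main chaperone of that compartment, was not called (0.20 ± 0.09, adjusted p = 0.21), nor was Xbp1 (-0.04 ± 0.08, adjusted p = 0.777).

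Genes with all 6 libraries separated by genotype were a minority of the calls. They numbered 44 of the 355 higher genes (12.4%, against 4.64% of all genes tested) and 43 of the 160 lower genes (26.9%, against 5.91%). The call itself used 5 of these 6 libraries, which favours such a separation, so nothing is read from the excess over all genes. Hspe1, Creld2, Sdf2l1, Derl3 and the adhesion molecule gene Ceacam2 were among the higher ones. Rpl31-ps12, Syt12, Npy1r, Cd180, Ccr3, Cxcl12, Il7, Lepr and Tlr1 were among the lower ones; Cd180, Ccr3 and Tlr1 were picked after their values were seen. Ceacam2 stood at 14.5, 11.7 and 12.9 CPM in DKO and 6.54, 6.81 and 7.41 CPM in DKO/hA-I (0.83 ± 0.17, adjusted p = 0.0345; 0.91 without the block, adjusted p = 0.733).

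A few B cell and stromal genes were called lower. Ms4a1, which encodes CD20, stood at 464, 297 and 370.4 CPM in DKO and 484, 415 and 473 CPM in DKO/hA-I (-0.50 ± 0.09, adjusted p = 0.0282), and Bank1, a B cell scaffold, differed by -0.39 ± 0.09 (adjusted p = 0.0483). These were 2 of 10 B cell markers tested, with a list median of -0.124, and limma voom called Ms4a1 only. The B cell list medians by library, relative to the DKO/hA-I mean, were 0.01, -0.19 and -0.187 in DKO and -0.189, 0.077 and 0.093 in DKO/hA-I. DKO replicate 3 and its code 55 partner, DKO/hA-I replicate 1, were thus nearly equal. Cr2, the complement receptor of marginal zone and follicular B cells, differed by -0.60 ± 0.13 (adjusted p = 0.0449) and was the only one called of 8 marginal zone markers. Cd180, a Toll-like receptor homologue of B cells, stood at 126, 122 and 108 CPM against 166, 153 and 179 CPM (-0.52 ± 0.10, adjusted p = 0.0282).

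Of 12 reticular stroma markers tested (13 listed), 2 were called, both lower, of which DESeq2 called Cxcl12 only. Cxcl12, the chemokine that holds lymphocytes and haematopoietic progenitors near stroma, stood at 609, 408 and 432 CPM in DKO and 671, 639 and 612 CPM in DKO/hA-I (-0.62 ± 0.08, adjusted p = 0.00981). Il7, a survival cytokine for lymphocytes, stood at 9.71, 4.67 and 6.52 CPM against 11.7, 10.3 and 10.2 CPM (-0.99 ± 0.18, adjusted p = 0.0267). For both genes replicate 1 lay just below the DKO/hA-I range. Lepr, the leptin receptor, stood at 51.1, 24.2 and 30.3 CPM against 53.0, 52.5 and 51.3 CPM (-0.97 ± 0.12, adjusted p = 0.00704). Other large falls, between -0.91 and -1.57, were in Syt12, Cdh8, Gabrq, Ccr1, Npy1r and Col8a2, all at or below 30.7 CPM in each library. Syt12, Cdh8 and Gabrq were not called by DESeq2, limma voom or edgeR without robust estimation. Cdh8 was also called in 0 of the 6 fits with 1 library left out.

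Of the genes that make or export cholesterol, edgeR, DESeq2 and limma voom called 0 with the block. Unadjusted p was under 0.05 in 4 of 23 cholesterol synthesis genes (median -0.18), in 6 of 18 LXR targets and cholesterol efflux genes (median 0.013) and in 7 of 17 lipid-laden macrophage genes (median 0.055). Over all genes tested, 3187 of 14009 had an unadjusted p under 0.05 in this fit. Nothing is therefore read from such counts in a list. The 3 tools also called 0 of 15 inflammatory cytokines and chemokines (2 with unadjusted p under 0.05), 0 of 12 MHC class II genes (1) and 0 of 20 complement and phagocyte receptors (5). For cell type markers they called 0 of 14 T cell (0 with unadjusted p under 0.05), 0 of 12 NK cell (3) and 0 of 13 neutrophil markers (2). Of 12 red pulp macrophage markers 7 had a positive difference, with a median of 0.116, and edgeR called 1 (limma voom 0). Of 5 marginal zone macrophage markers edgeR, DESeq2 and limma voom called 0, and 1 had an unadjusted p under 0.05. The called gene was Cd5l, a secreted macrophage protein, at 531, 690.1 and 610.0 CPM against 437, 578 and 523 CPM (0.39 ± 0.09, adjusted p = 0.0451).

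The pseudogene Rpl31-ps12 (chromosome 16, 16819749 to 16820123, minus strand, GRCm38) was the gene called both with and without the block. It had 2, 1 and 2 counts in DKO and 597, 776 and 789 counts in DKO/hA-I (-8.61 ± 0.26, adjusted p = 2.86e-07; -8.48 without the block, adjusted p = 1.12e-06). In lymph node the direction was the opposite, with 1002, 347 and 745 counts in DKO and 1 count in each DKO/hA-I library. Whether the labels of 1 tissue are exchanged was not tested; an exchange would turn the sign of every genotype difference there. With so few counts on the low side the fitted size is loose: scaled to library size, the level in DKO/hA-I spleens was 441-fold that in DKO replicates 2 and 3 (95% interval 151 to 2140, counting error only). Its sequence is printed because 4 of its 375 bases differ from the Rpl31 transcript, which makes the assignment of reads uncertain. The first 300 bases follow, from the GENCODE vM21 transcripts, with the 3 differing bases in capitals.
Rpl31-ps12: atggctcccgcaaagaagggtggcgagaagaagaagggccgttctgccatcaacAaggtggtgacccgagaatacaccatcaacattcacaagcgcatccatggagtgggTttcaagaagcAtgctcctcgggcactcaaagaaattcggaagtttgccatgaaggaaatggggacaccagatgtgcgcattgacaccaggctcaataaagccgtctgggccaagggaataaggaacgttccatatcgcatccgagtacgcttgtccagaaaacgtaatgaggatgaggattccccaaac

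A far lower count in some libraries marked 3 further genes. BC090627 had 23, 0 and 0 counts in DKO and 39, 123 and 92 in DKO/hA-I. Against a floor of 3 counts over DKO replicates 2 and 3, it was 51.8-fold lower there, with a lower 95% bound of 17.5-fold (counting error only). RefSeq gives it the synonym Chkb-Cpt1b, after the neighbouring genes Chkb and Cpt1b that it joins. Cpt1b stood at 6.69, 7.40 and 8.42 CPM in DKO and 3.89, 0 and 2.79 CPM in DKO/hA-I (adjusted p = 0.378), lowest where BC090627 was highest, so how reads were divided between them is uncertain. DKO replicate 1 held BC090627 reads, and it had 0 counts of the pseudogene Gm17757, which had 110 to 189 in each of the other 5 libraries. Hbb-b2, a beta globin gene singled out after its values were seen, had 642 counts in DKO replicate 2 and 262 in DKO/hA-I replicate 2, both of code 57, and 11802 to 36869 in the others, among them the third library of code 57. Its low libraries still held 62.5 and 25.5 CPM. These patterns do not all follow the genotype or the code.

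**Figure D5:**
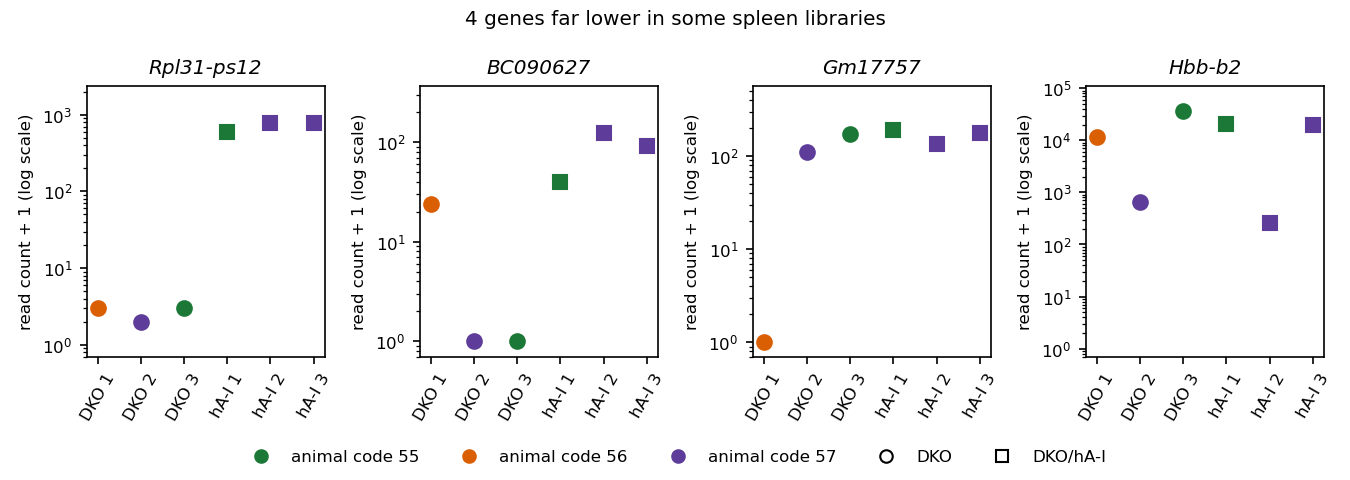
Read count plus 1 (y axis, log scale) of Rpl31-ps12, BC090627, Gm17757 and Hbb-b2 in each spleen library (x axis), coloured by animal code, with circles for DKO and squares for DKO/hA-I. Rpl31-ps12 separates the genotypes (1 to 2 against 597 to 789 counts), Gm17757 is at 0 only in DKO replicate 1, and Hbb-b2 is low in 1 library of each genotype.

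The codes were also compared with each other. Between codes 57 and 55, with genotype in the model, edgeR called 0 of 14009 genes (0%); 2496 had an unadjusted p under 0.05, and DESeq2 called 59. Code 56, which is DKO replicate 1 alone, against codes 55 and 57 gave 473 calls (3.38%), 188 higher (1.34%) and 285 lower (2.03%). This contrast shares DKO replicates 2 and 3 with the genotype difference, so the genes are given side by side only. Csf1, the growth factor of macrophages, stood at 221, 93.6 and 113 CPM in DKO and 136, 126 and 137 CPM in DKO/hA-I (code 56 difference 1.10, adjusted p = 0.00528; genotype difference -0.40 ± 0.09, adjusted p = 0.0483). Its genotype difference changed sign without the block (0.10, adjusted p = 0.972). Stip1, an HSP70 and HSP90 co-chaperone, stood at 332, 132 and 192 CPM against 142, 112 and 118 CPM (code 56 difference 1.06, adjusted p = 0.00528). The code 56 contrast has no replicate of its own and assumes that its library varies like the others.

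The difference between DKO and DKO/hA-I was then compared with that in lymph node, from other animals, in 1 fit of all 12 libraries with the code as a block in spleen. The tissue difference was called for 178 of 14608 genes (1.22%). Of the spleen calls, it was called for 26 of 355 higher and 7 of 160 lower genes. The tissue difference contains the same spleen values that made these calls, so nothing is read from these counts against the share of all genes. In the lymph node comparison 962 of 14012 genes were called (6.87%), 553 of them higher and 409 lower. Of the 332 higher spleen genes tested there, 24 were called higher and 10 lower. Of 157 lower spleen genes tested there, 5 were called higher and 12 lower. These counts were not tested against the shares of all genes in each direction. Among the node libraries all 3 DKO animals have 1 code and the DKO/hA-I animals have others, so code and genotype cannot be told apart there.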

How the data were processed

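Poly(A) RNA of 6 spleens was sequenced, 3 libraries for each genotype. The deposited table gives raw read counts per gene symbol and library, per the file headers, made by the authors. The submitters' processing notes name Trimmomatic, Bowtie, TopHat, Cuffdiff and the build GRCm38 (mm10); no source used here gives the counting program, its strand setting or the annotation. Reads of overlapping genes and near-identical copies may therefore be divided in ways that cannot be checked. Count columns were matched to samples by the animal codes in the labels, and the authors' own comparison columns were not used.

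Genes kept by filterByExpr (at least 10 counts, in total at least 15) were scaled with TMM and tested in edgeR 4.0.16 (R 4.3.3) with robust estimateDisp, glmQLFit and glmQLFTest, with and without the middle code number as a block. Calls are at a Benjamini-Hochberg adjusted p under 0.05, and the steps were tested on simulated counts. DESeq2 1.42.0, limma 3.58.1 voom, other scalings and filters and each library left out were tried. A floor of 3 counts is 0.267 to 0.335 CPM in these libraries and covers counting error only.

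The members and gene lists were chosen with earlier results of these data known. Named genes are the 12 higher and 12 lower of largest difference called with the block, same in direction in all 3 comparisons within a code and at least 1 CPM in the higher group, leaving out gene segments and gene models (23 higher and 19 lower), up to 4 called members of each list, otherwise 2 as values, and 5 genes per direction for each code and tissue contrast. Other list members are named as values, and a few of the genes this rule takes are not reported here. Positions are from GENCODE vM21 (GRCm38). Each library has its own animal code in the labels, and the spread behind a p-value is that among these libraries. Between replicates, counts differed by 9.52 to 49.7 times the Poisson expectation, so no library was a copy.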

Additional observations from a re-analysis of the deposited data

Results flagged for a closer look

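For 13 genes named here the difference between DKO and DKO/hA-I libraries itself differed between lymph node and spleen in the fit of all 12 libraries. Values are the lymph node difference minus the spleen difference in log2, so a positive value means a higher DKO level in node than in spleen relative to DKO/hA-I. Rpl31-ps12 had a fitted 17.96, whose size is loose because its low side held 1 or 2 counts per library in both tissues. Spleen and lymph node differences had opposite signs in Rpl31-ps12, Ccr1, Pla2g7, Cxcl12, Apol11b, Tmcc2, Marco, Ceacam2, Slc2a4, Fgfrl1 and Fn3k, and the same sign in Mmp3 and Cd209b. In lymph node alone (edgeR, no block), Tmcc2 was near 0 (-0.09 ± 0.22, adjusted p = 0.848). Cxcl12 (0.43, adjusted p = 0.0817) and Apol11b (-1.96, adjusted p = 0.0757) were not called there, and Marco was not called in spleen. Many of these genes were picked by their tissue difference among the spleen calls, which favours opposite signs. The chemokine receptor gene Ccr1 had 3.01, the matrix metalloproteinase gene Mmp3 3.29, the lipoprotein phospholipase gene Pla2g7 2.66 and Cxcl12 1.03.

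Negative values were found for Apol11b at -3.36, Tmcc2 at -1.47, Ceacam2 at -2.83, Fgfrl1 at -2.22 and Fn3k at -2.73. Slc2a4, the insulin-responsive glucose transporter gene, had -5.83, with 12, 12 and 36 counts in DKO nodes and 796, 734 and 179 in DKO/hA-I nodes. Adipocyte markers moved with it: the median lymph node difference of the 3 tested in spleen was -4.18, and Cfd had 80, 126 and 33 counts in DKO nodes against 1056, 4158 and 627. Their part in the result was not tested. The macrophage receptor genes Cd209b and Marco, which were not called in spleen, had -3.24 and -3.94. Leaving out single libraries brought the number of genes called for the tissue difference from 178 to between 1 and 1238. In lymph node the genotype and the animal code cannot be told apart.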

How the results depend on the processing

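With the replicate block by animal code, 515 genes were called; limma voom gave 316, the fit without robust estimation 343, DESeq2 377 and the fit with no filter on low counts 719. With no replicate block the count was 1, and with the replicate block by the number in the titles it was also 1. Leaving out 1 library gave 22 to 940 calls with the block and 1 to 167 without it; 167 came without DKO replicate 1. Without the block edgeR gave 1 call and DESeq2 5, and edgeR with the replicate block by animal code gave 515 (DESeq2 377). For code 57 minus 55, no filter gave 96 calls, DESeq2 59 and leaving out 1 library 0 to 26. For animal code 56 minus the mean of animal codes 55 and 57, no filter gave 747 calls and leaving out 1 library 180 to 1399. For the tissue difference, DESeq2 gave 851, limma voom 51, the fit with no replicate block 487 and leaving out 1 library 1 to 1238. Csf1 changed sign with no replicate block (0.096, adjusted p = 0.972). The cause of these shifts was not tested.

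The pairing rests on the code numbers alone. Deviations from the group means correlated, across genes, at 0.246, 0.132 and 0.008 in the 3 pairs of the same code, so not every pair exceeded 0.1, and at -0.015, 0.132 and -0.11 in pairs of the same title number. The pair at 0.132 has both the same code and the same title number. Pairs of different codes with DKO replicate 2 or 3 correlated at -0.134, -0.166 and -0.11. Those with DKO replicate 1 correlated at -0.015, -0.028 and 0.054. Deviations from a group mean cancel out over the libraries of that group, so values of different codes depend on those of the same code. Nothing is read from their sign. What libraries of one code share was not tested, and a call lost without the block is not described as a weaker effect.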

Other observations

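On the X chromosome 16 of 453 genes tested were called lower in DKO and 3 higher, 3.53% and 0.66%, against 1.14% and 2.53% of all genes tested. The X chromosome was singled out after the values of all chromosomes were seen, as the one with the largest share called lower. Chromosome 10 had the largest share called higher, 4.48%. Among the lower genes with an all-library separation were the eotaxin receptor gene Ccr3, at 71.5, 69.3 and 78.8 CPM in DKO and 124, 95.4 and 91.3 CPM in DKO/hA-I (edgeR with the block, -0.53 ± 0.09, adjusted p = 0.0221), and Tlr1, a receptor for bacterial lipoproteins, at 111, 95.3 and 87.5 CPM against 120.0, 125 and 127 CPM (-0.43 ± 0.08, adjusted p = 0.0303). Both were picked after their values were seen.

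Megakaryocyte and platelet markers had no called member of 12 by edgeR, DESeq2 or limma voom with the block. By edgeR 1 had an unadjusted p under 0.05, as did 3187 of all 14009 genes. Their library medians relative to the DKO/hA-I mean were 0.174, 0.25 and -0.605 in DKO and 0.009, 0.213 and -0.256 in DKO/hA-I.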
